A study of Mus musculus with 24 samples.

Results

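The step from 2 to 3.5 g/L dichloroacetic acid (DCA) is the comparison of the 6 liver libraries at the highest dose (replicates 97 to 102) with the 6 at the dose below it (replicates 73 to 78), 12 of the 24 libraries of the study. All came from male B6C3F1 mice, a hybrid strain, aged 4 weeks, with DCA in the drinking water for 6 days, and the tissue was frozen liver of mixed lobes. The 2 groups shared strain, sex, age, agent and length of exposure, and no allele or transgene is named. The other libraries, 6 at 0 g/L and 6 at 1 g/L, are used here for levels and for counts set side by side. A gene entered the comparison if it reached 0.5 RPKM (reads per kilobase of gene model, scaled to the mapped reads of the library) in at least 6 of the 12 libraries. That held for 6314 of the 15582 genes held, and 4 of the 6314 passed through the libraries of 1 dose only, 3 of them called. Differences are of log2(RPKM + 1), 3.5 minus 2 g/L, with a standard error (SE) from limma. A gene is said to have risen or fallen at a two-sided limma p, adjusted over all tested genes, under 0.05. Values after ± are SDs over 6 libraries.

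DCA inhibits the kinases that switch off pyruvate dehydrogenase, and in mouse liver it is also known to turn on genes of PPARα, the nuclear receptor of fatty acid oxidation. Rodent liver carries a sex-specific programme of cytochromes P450, urinary proteins and transporters, set by the pattern of growth hormone release and read out through the transcription factor STAT5b. Hepatocytes also make most plasma proteins of the acute-phase, complement and clotting systems, and synthesise cholesterol.

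Depth, estimated from the steps between low RPKM values, was about 25300000 to 27400000 reads per library at 2 g/L and about 25100000 to 28900000 at 3.5 g/L. The absolute scale is approximate, since single genes gave a median library 18900000 to 28600000 reads (interquartile range), while the relative depth of the libraries ran from 0.971 to 1.118. The first principal component of the 12 libraries (30.5% of the variance) placed the 2 g/L libraries between -11.8 and -5.1 and those of 3.5 g/L between 6.7 and 11.5. On the second component (18.4%), 2 g/L replicate 78 lay at -16.6 and the other 11 between -6.2 and 8.5. Without it, 7 of the 90 called genes described with values lost their calls (Cbr1, Cfi, Ddx60, Fbf1, Fitm2, Gstm1 and Ifih1), with adjusted p of 0.0512 to 0.0798. The median SD of log2(RPKM + 1) within a dose was 0.126 at 2 g/L and 0.11 at 3.5 g/L. Sample titles carry a tag whose meaning is not stated, L2 in all 2 g/L libraries and L3 in all 3.5 g/L libraries, so tag and dose cannot be told apart in this comparison. Within 1 g/L, where 3 libraries are tagged L1 and 3 L2, limma called 0 of 6308 genes between tags (0%), with 519 at an unadjusted p under 0.05. With 3 libraries against 3 that comparison has less power, and it holds no L3 library, so it cannot bear on L2 against L3. Whether the 6 libraries of a dose stand for 6 animals is not stated, so the p-values here reflect variation among libraries, which may be technical. Hepatocyte markers stood high at both doses: 7 of them summed to 16943 to 26088 RPKM at 2 g/L and 18157 to 23536 at 3.5 g/L, while 5 lymphocyte markers summed to at most 2.01 RPKM.

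Between 2 and 3.5 g/L, limma called 456 of 6314 genes (7.22%). Of these, 238 rose (3.77%) and 218 fell (3.45%), and 1544 genes had an unadjusted p under 0.05. Most calls were small: 116 (1.84%) reached a difference of 0.5, of which 60 rose and 56 fell. The median difference over all tested genes was -0.012. Every 3.5 g/L library lay above every 2 g/L library for 138 genes (2.19%) and below for 128 (2.03%). Set side by side, each on its own 12 libraries, 2 against 1 g/L gave 1638 calls of 6321 genes (25.9%) and 1 against 0 g/L gave 612 of 6272 (9.76%); neighbouring steps share libraries. The count of calls between 2 and 3.5 g/L was 223 without 3.5 g/L replicate 102, 278 without replicate 99 and 288 without replicate 101.

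**Figure D1:**
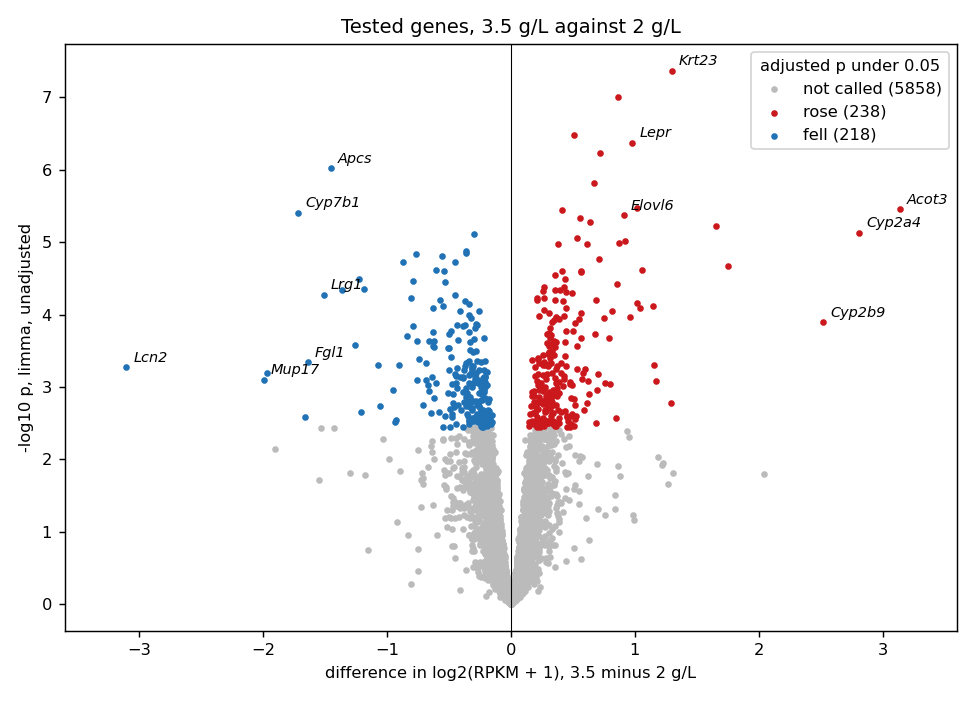
Each point is 1 of the 6314 tested genes, with the difference in log2(RPKM + 1) between 3.5 and 2 g/L on the x axis and -log10 of the unadjusted limma p on the y axis. The 238 genes that rose and the 218 that fell are coloured, and the widest differences are Acot3 at 3.14 and Lcn2 at -3.10.

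Gene lists are described by counts, and their members overlap. Acot3 and Acot4 stand among female-biased genes and PPARα targets, and Cyp2b9 among female-biased genes and targets of the xenobiotic receptors CAR and PXR. Nr1i3, the gene of CAR itself, stands among those targets and among nuclear receptors. Gstm1 stands among those targets and among antioxidant genes of NRF2. C6, C8a and C8b stand among male-biased genes and complement, and the fibrinogen genes among acute-phase and coagulation genes. Lists with many members that rose, beside 3.77% of all genes, held female-biased genes (6 of 16), targets of CAR and PXR (6 of 17) and nuclear receptors (7 of 20). Lists with many that fell, beside 3.45% of all genes, held DNA replication (7 of 15), complement (11 of 26), acute-phase (9 of 23), cholesterol synthesis (7 of 20) and major urinary protein genes (6 of 19).

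**Figure D2:**
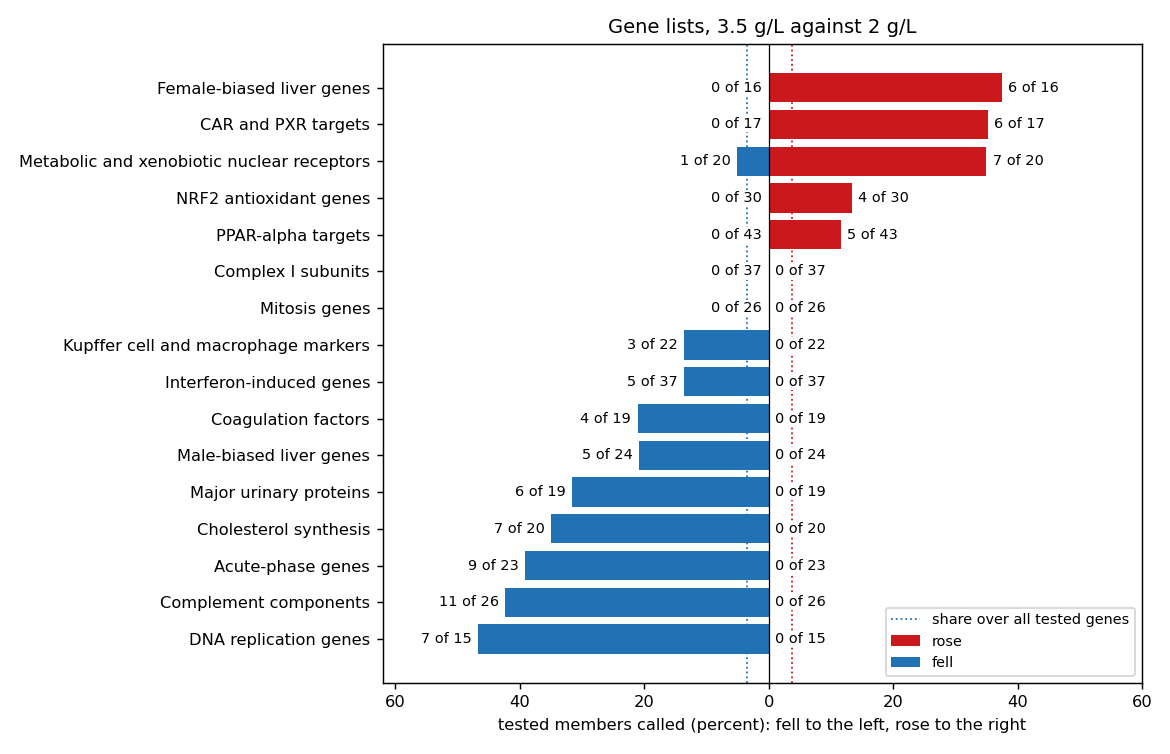
For each gene list, bars give the percent of tested members that rose or fell between 2 and 3.5 g/L, with counts, and dotted lines give the shares over all 6314 genes (3.77% rose, 3.45% fell). Female-biased genes rose in 6 of 16 cases and DNA replication genes fell in 7 of 15, while 0 of 37 complex I subunits were called.

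Of 16 tested genes that are higher in female than in male mouse liver, 6 rose in these male livers, 0 fell and 10 were not called, with a median difference of 0.80 over the 16. The 6 were Acot3, Acot4, Cyp2a4, Cyp2a22, Cyp2b9 and Abcd2. For each of the 6, every 3.5 g/L library lay above every 2 g/L library. That held for 2.19% of all tested genes and for 121 of the 238 that rose. The 6 kept their calls under every alternative processing run and with each library left out in turn. In the step of 2 against 1 g/L, which shares the 2 g/L libraries, 11 of 17 tested female-biased genes rose and 5 fell. Of all genes in that step, 20.8% rose.

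Acot3, a peroxisomal acyl-CoA thioesterase (chromosome 12, 84052144 to 84060402, GRCm38), ran from 0.665 to 8.26 RPKM at 2 g/L (median 2.68) and from 16.6 to 62.7 at 3.5 g/L (median 29.4). At 0 and 1 g/L its mean was 0.0501 ± 0.0263 and 0.0544 ± 0.0230 RPKM. Its difference of 3.14 (SE 0.42, adjusted p = 0.00224) was the largest positive difference among the 6314 genes, and its mean at 3.5 g/L was 10.3 times that at 2 g/L. Acot4, a neighbouring gene that also encodes a peroxisomal thioesterase, ran from 2.95 to 10.9 RPKM at 2 g/L (median 6.06) and from 13.7 to 27.7 at 3.5 g/L (median 21.3), a difference of 1.66 (SE 0.23, adjusted p = 0.00254). Acot genes of this cluster are alike in sequence, and the treatment of shared reads is not stated in the sources used here.

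Cyp2a4, a steroid 15-alpha-hydroxylase (chromosome 7, 26307169 to 26315088), ran from 1.81 to 12.1 RPKM at 2 g/L (median 4.29) and from 22.9 to 92.8 at 3.5 g/L (median 32.03). Its difference was 2.81 (SE 0.40, adjusted p = 0.00290). Cyp2b9, a P450 of the phenobarbital-responsive family (chromosome 7, 26173411 to 26210661), ran from 1.45 to 12.6 RPKM at 2 g/L (median 5.83) and from 15.8 to 129.5 at 3.5 g/L (median 31.4), a difference of 2.52 (SE 0.48, adjusted p = 0.00929). Replicate 99 was the highest 3.5 g/L library for both, and without it the differences were 2.54 for Cyp2a4 and 2.17 for Cyp2b9. Both have close relatives in their gene clusters, so their reads are uncertain. Cyp2a22 rose from a mean of 2.08 ± 1.02 to 9.63 ± 4.49 RPKM (difference 1.75 (SE 0.28, adjusted p = 0.00451)). Abcd2, the peroxisomal importer of very long chain acyl-CoA, rose from 1.69 ± 0.661 to 4.61 ± 1.78 RPKM (difference 1.04 (SE 0.19, adjusted p = 0.00749)). At 0 g/L, Cyp2a4 and Cyp2b9 stood at 0.360 ± 0.0952 and 0.698 ± 0.408 RPKM, low levels though above that of Acot3.

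Of 24 tested male-biased genes, 5 fell (Cyp7b1, C6, C8a, C8b and Cml5), beside 3.45% of all genes, and 0 rose. The median difference over the 24 was -0.47. In the step of 2 against 1 g/L, which shares the 2 g/L libraries, 10 of 24 male-biased genes fell and 1 rose. Of all genes in that step, 25.9% were called in either direction. Cyp7b1, the oxysterol 7-alpha-hydroxylase of the alternative bile acid pathway (chromosome 3, 18071950 to 18243338), ran from 55.2 to 109 RPKM at 2 g/L (median 74.3) and from 13.3 to 41.8 at 3.5 g/L (median 22.8). The groups did not overlap, and the difference was -1.71 (SE 0.23, adjusted p = 0.00224). Its means at 0 and 1 g/L were 106 ± 28.00 and 134 ± 29.01 RPKM. Cml5, an N-acetyltransferase-like gene, fell by 0.95 (SE 0.23, adjusted p = 0.0271), with overlapping groups. Hsd3b5, a male-specific 3-ketosteroid reductase, ran from 34.02 to 95.2 RPKM at 2 g/L (median 62.9) and from 6.15 to 55.5 at 3.5 g/L (median 22.8). Its difference of -1.42 (SE 0.41, adjusted p = 0.0503) was not called, though it was in 4 alternatives, such as all 24 libraries in the fit (adjusted p = 0.00536). Elovl3, a fatty acid elongase, had -1.03 (SE 0.31, adjusted p = 0.0612), and -1.27 (adjusted p = 0.0142) without 2 g/L replicate 78. The number of male-biased genes that fell was 8 without that library and 3 without 2 g/L replicate 75 or 3.5 g/L replicate 99 or 102.

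The major urinary proteins, pheromone carriers that male liver makes in bulk, had a median difference of -0.93 over 19 tested genes. Mup6, Mup12, Mup15, Mup16, Mup17 and Mup19 fell and 0 rose. Mup17 ran from 28.6 to 295 RPKM at 2 g/L (median 141) and from 16.1 to 50.2 at 3.5 g/L (median 33.4), a difference of -1.99 (SE 0.46, adjusted p = 0.0229). The groups overlapped through 2 g/L replicate 78 alone, at 28.6 RPKM, the other 5 libraries of that dose lying at 96.8 or more. Mup16 differed by -1.97 (SE 0.45, adjusted p = 0.0213), and Mup12, Mup15 and Mup6 by -1.21, -1.06 and -1.07. These genes are near-identical copies, so the split of reads among them is uncertain. The number that fell was 8 without 2 g/L replicate 78 and 2 without 3.5 g/L replicate 99. It was 3 without any one of 2 g/L replicates 73, 74, 75 and 77 and 3.5 g/L replicates 98 and 102, 8 with all 24 libraries in the fit, and 1 with no filter.

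The growth hormone axis list, which also holds the leptin receptor gene Lepr, had 13 tested genes. Lepr was the 1 that rose (beside 3.77% of all genes), 0 fell, and the other 12 were not called. Lepr ran from 0.457 to 0.908 RPKM at 2 g/L (median 0.666) and from 1.73 to 3.27 at 3.5 g/L (median 2.26), a difference of 0.98 (SE 0.11, adjusted p = 0.000669) with no overlap. Cish, a feedback inhibitor induced by STAT5, ran from 0.408 to 8.29 RPKM at 2 g/L (median 4.50) and from 0.348 to 1.23 at 3.5 g/L (median 0.856). Its difference of -1.18 (SE 0.43, adjusted p = 0.116) was not called. In the 2 g/L group, replicates 73 and 74 were at 0.574 and 0.408 RPKM, within the range at 3.5 g/L, and the other 4 at 4.01 or more. Without replicate 73 the adjusted p for Cish was 0.0477, and without replicate 74 it was 0.0364. The growth hormone receptor gene Ghr (-0.08, SE 0.08, adjusted p = 0.601) and its target Igf1 (-0.18, SE 0.14, adjusted p = 0.430) were not called.

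**Figure D3:**
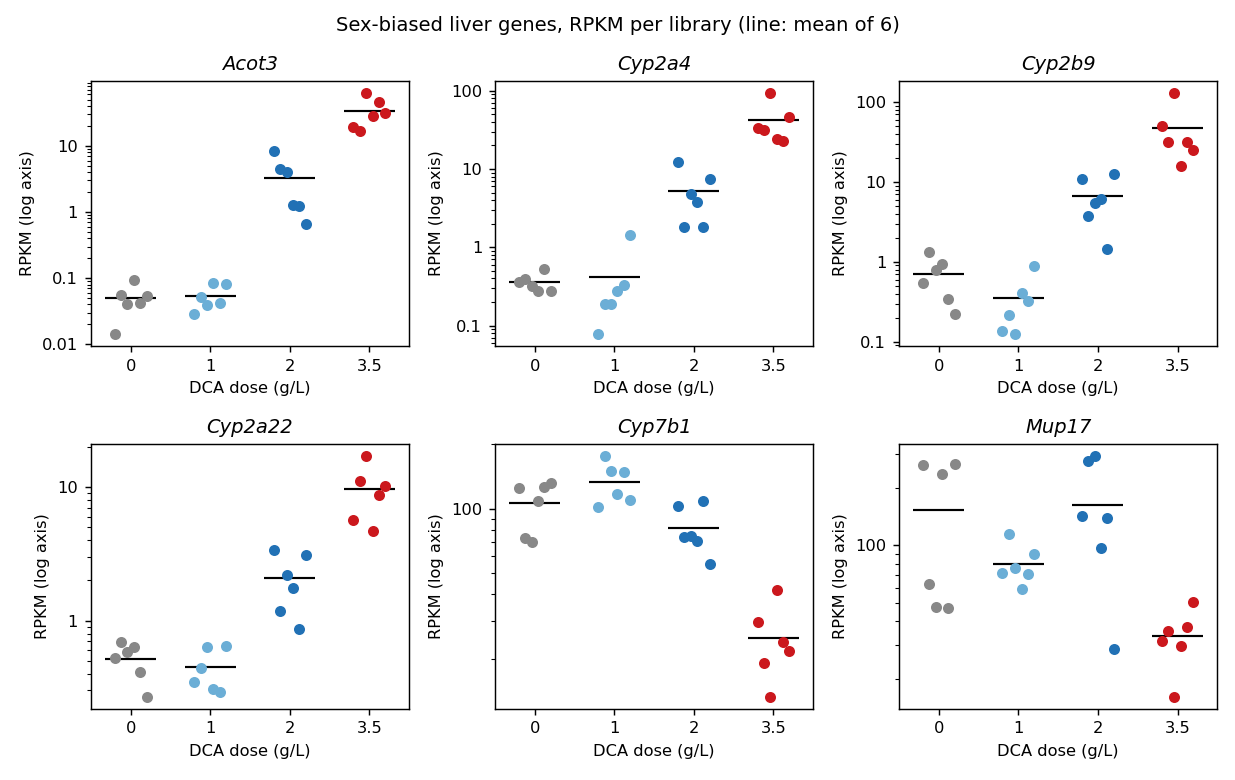
Each point is a library, with RPKM on a log axis against DCA dose, and each line is the mean of 6 libraries, for female-biased genes, Cyp7b1 and Mup17. For Acot3, Cyp2a4 and Cyp2b9 every 3.5 g/L library lies above every 2 g/L library, Cyp7b1 shows the reverse, and Mup17 overlaps through 1 low 2 g/L library at 28.6 RPKM.

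Of 43 tested PPAR-alpha targets, 5 rose (Acot3, Acot4, Angptl4, Fitm2 and Mlycd), beside 3.77% of all genes, 0 fell and 38 were not called. The median difference was 0.23, with 35 of the 43 differences positive and 8 negative. At an unadjusted limma p under 0.05, 15 were higher at 3.5 g/L and 0 were lower. Set beside this step, the comparison of 2 with 1 g/L, which shares the 2 g/L libraries, had 40 of 42 tested targets risen (beside 20.8% of all genes). The median there was 0.98. The mean deviation of the 43 targets from their mean over the 12 libraries was -0.966 in 2 g/L replicate 78 and -0.38 to 0.222 in the other 2 g/L libraries, against -0.187 to 0.438 at 3.5 g/L. With all 24 libraries in the fit, 11 targets rose.

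Cyp4a10 and Cyp4a14, the fatty acid omega-hydroxylases that mark PPARα activation, were not called. Cyp4a14 ran from 173 to 1127 RPKM at 2 g/L (median 746) and from 737 to 1467 at 3.5 g/L (median 1126), a difference of 0.84 (SE 0.39, adjusted p = 0.200), and Cyp4a10 differed by 0.76 (SE 0.37, adjusted p = 0.222). Without 2 g/L replicate 78, the lowest of its dose for Cyp4a14, these were 0.48 and 0.43. At 0 g/L the mean of Cyp4a14 was 0.925 ± 0.978 RPKM. Ehhadh, the peroxisomal bifunctional enzyme, was at 165 RPKM in 2 g/L replicate 78, at 673 to 1559 in the other 5 and at 733 to 1819 at 3.5 g/L. Its difference of 0.56 (SE 0.45, adjusted p = 0.475) became 0.11 without that library. Acot1, a cytosolic thioesterase next to Acot3 and Acot4, ran from 6.04 to 72.8 RPKM at 2 g/L (median 39.4) and from 43.3 to 113 at 3.5 g/L (median 91.8), with a difference of 1.31 (SE 0.47, adjusted p = 0.114). It was called (adjusted p = 0.0299) with all 24 libraries in the fit. Without replicate 78 the difference of Acot1 was 0.86, with adjusted p = 0.0975. Cpt1a, the gate of mitochondrial fatty acid uptake, had 0.13 (SE 0.10, adjusted p = 0.437), and the hormone gene Fgf21 had 0.26 (SE 0.11, adjusted p = 0.157).

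Angptl4, a secreted inhibitor of lipoprotein lipase, rose. It ran from 14.8 to 44.3 RPKM at 2 g/L (median 37.6) and from 62.3 to 71.7 at 3.5 g/L (median 66.3), a difference of 1.16 (SE 0.25, adjusted p = 0.0191), with no overlap. At 2 g/L, replicates 76 and 78 were low, at 14.8 and 15.8 RPKM. Mlycd, which breaks down malonyl-CoA, the inhibitor of mitochondrial fatty acid import, rose by 0.36 (SE 0.07, adjusted p = 0.0136). Fitm2, a lipid droplet protein, rose by 0.49 (SE 0.13, adjusted p = 0.0426), a call lost in 9 of 20 alternatives. Lpin2, a phosphatidate phosphatase, ran from 21.4 to 42.9 RPKM at 2 g/L (median 33.8) and from 58.6 to 76.3 at 3.5 g/L (median 69.1), a difference of 1.02 (SE 0.14, adjusted p = 0.00224) without overlap. Its relative Lpin1 stood at 6.27 ± 1.46 and 7.53 ± 1.83 RPKM and was not called (0.23, SE 0.15, adjusted p = 0.368). Elovl6, the elongase that lengthens palmitate, rose from 14.00 ± 3.02 to 27.1 ± 3.94 RPKM (0.91, SE 0.12, adjusted p = 0.00224). Mfsd2a, a lysophospholipid carrier, rose from 1.83 ± 0.662 to 4.78 ± 0.981 RPKM (1.05, SE 0.17, adjusted p = 0.00451). Fabp5, a fatty acid binding protein, fell from 38.03 ± 14.4 to 13.9 ± 4.58 RPKM (-1.37, SE 0.23, adjusted p = 0.00601). For Elovl6, Mfsd2a and Fabp5 the groups did not overlap. Of 37 complex I subunits, 28 subunits of cytochrome c oxidase and ATP synthase, and 17 genes of pyruvate entry and the citric acid cycle, limma called 0 (beside 7.22% of all genes). At an unadjusted p under 0.05, 3, 3 and 4 of these were higher at 3.5 g/L and 0 were lower.

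**Figure D4:**
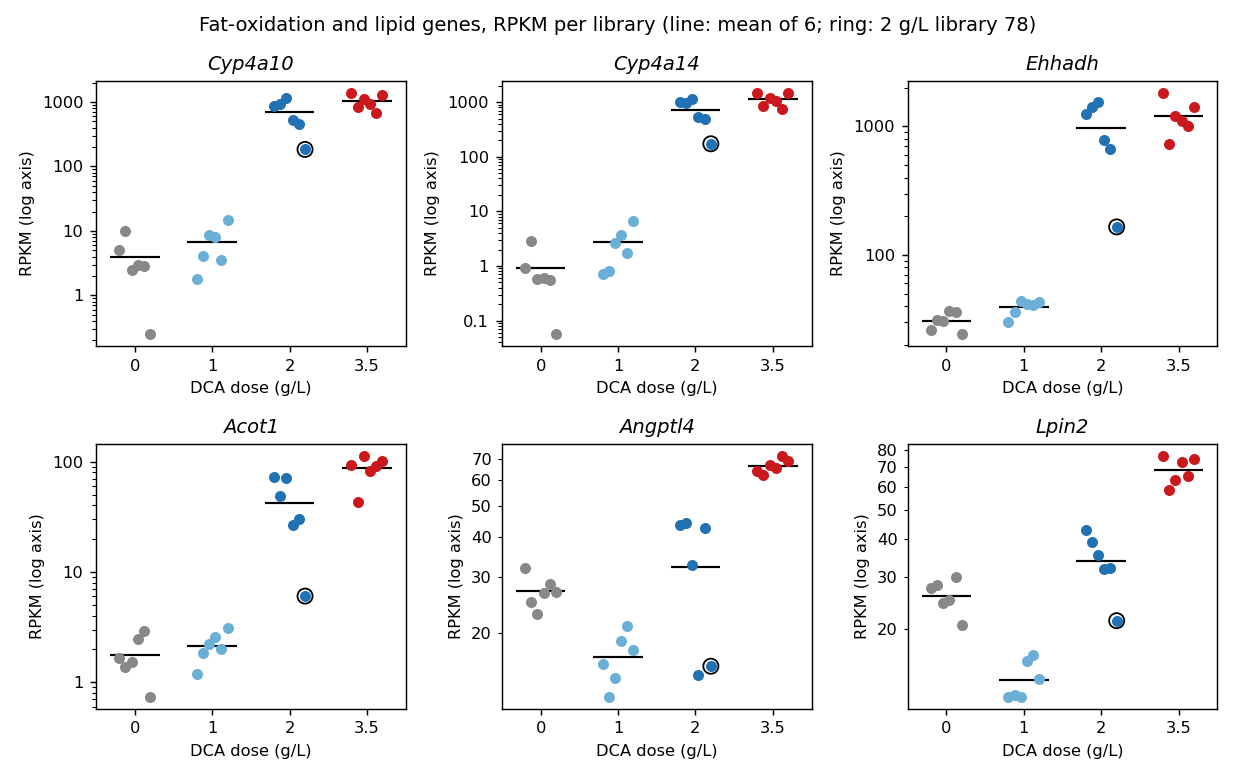
Each point is a library, with RPKM on a log axis against DCA dose, for PPARα targets that were not called and for Angptl4 and Lpin2, which rose, and lines are means of 6 libraries. 2 g/L replicate 78 is marked, and for Ehhadh it lies at 165 RPKM while the other 2 g/L libraries lie between 673 and 1559.

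Nuclear receptors and their partners rose in 7 of 20 cases, with 1 fall and a median difference of 0.21. Nr0b2 (SHP), a corepressor induced by bile acids through FXR, lies on chromosome 4, 133553376 to 133556536. It ran from 3.82 to 9.20 RPKM at 2 g/L (median 6.77) and from 11.4 to 16.9 at 3.5 g/L (median 13.6), a difference of 1.01 (SE 0.18, adjusted p = 0.00694). Its means at 0 and 1 g/L were 16.5 ± 2.94 and 12.7 ± 4.14 RPKM, and the mean at 3.5 g/L, 13.8 ± 1.96, lay between them. Nr1h4 (FXR) rose from 25.5 ± 1.87 to 32.7 ± 2.57 RPKM (0.34, SE 0.06, adjusted p = 0.00886), and Hnf4a, a master regulator of hepatocyte genes, from 95.7 ± 10.4 to 128 ± 4.14 RPKM (0.42, SE 0.07, adjusted p = 0.00667). The coactivator gene Ncoa1 rose by 0.21 (SE 0.04, adjusted p = 0.00665). For these 4 genes the groups did not overlap. Esrra (0.41), Nr1i3 (CAR, 0.44) and Nr2f2 (0.32) also rose, with overlapping groups. The call of Nr1i3 was lost in 8 and that of Nr2f2 in 11 of 20 alternatives. Esr1, the oestrogen receptor, fell from 2.34 ± 0.300 to 1.45 ± 0.274 RPKM (-0.45, SE 0.08, adjusted p = 0.00647), without overlap.

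The list of targets of CAR and PXR, the receptors that induce drug-metabolising P450s, had 6 of 17 members risen and 0 fallen. The 6 were Cyp2b9, Cyp2c29, Cyp3a11, Cyp3a59, Gstm1 and Nr1i3. Nr1i3 is the gene of CAR itself and is also counted among the nuclear receptors that rose. The median difference over the 17 was 0.39. Cyp3a59 ran from 3.15 to 6.67 RPKM at 2 g/L (median 3.97) and from 7.34 to 11.5 at 3.5 g/L (median 8.73), a difference of 0.92 (SE 0.13, adjusted p = 0.00309). Cyp3a11, the main hepatic Cyp3a gene, rose from 520.2 ± 118 to 790.0 ± 103 RPKM (0.62, SE 0.15, adjusted p = 0.0235), and Cyp2c29 from 188 ± 42.04 to 287 ± 50.8 RPKM (0.62, SE 0.16, adjusted p = 0.0334), both with overlap. Against 0 g/L, Cyp2c29 differed by -0.97 at 2 g/L (limma adjusted p = 0.00139) and by -0.36 at 3.5 g/L (adjusted p = 0.126). In the same order, Cyp3a59 differed by -0.66 (adjusted p = 0.00363) and 0.25 (adjusted p = 0.131). Cyp3a11 differed by 0.04 (adjusted p = 0.894) and 0.66 (adjusted p = 0.0120). For Cyp2b9, Gstm1 and Nr1i3 these differences were 2.01, 0.96 and 0.11 at 2 g/L and 4.53, 1.48 and 0.55 at 3.5 g/L. Cyp2b10, the textbook CAR target, was too low to be tested, with highest values of 0.607 RPKM at 2 g/L and 1.15 at 3.5 g/L. The number of list members that rose was 2 without 3.5 g/L replicate 99 and with no filter, and 3 without 2 g/L replicate 73 or 3.5 g/L replicate 98, 100 or 102. Outside the list, Cyp3a25, another Cyp3a gene, singled out after its values were seen, had the second smallest p of all tested genes. It ran from 106 to 152 RPKM at 2 g/L (median 133) and from 232 to 242 at 3.5 g/L (median 238), a difference of 0.87 (SE 0.09, adjusted p = 0.000314), and its 6 libraries at 3.5 g/L had an SD of 3.69 RPKM, against 17.8 at 2 g/L. Cyp2c38, also outside it, rose from 3.51 ± 1.12 to 9.01 ± 2.77 RPKM (1.14, SE 0.20, adjusted p = 0.00733), with no overlap. P450 genes of a cluster share sequence, and their reads are uncertain.

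Of 30 antioxidant genes of NRF2, the factor that answers oxidative and electrophile stress, 4 rose (beside 3.77% of all genes) and 0 fell. The 4 were Abcc2 (0.48), Cbr1 (0.49), Gsta2 (0.80) and Gstm1 (0.52). Without 3.5 g/L replicate 102, limma called 0 of the 30 (7 higher at an unadjusted p under 0.05), and without replicate 99 it called 1. For 2 g/L replicates 74, 77 and 78 and 3.5 g/L replicates 97 and 98, leaving out any one gave 2. In bile acid synthesis, Cyp39a1, an oxysterol 7-alpha-hydroxylase, rose while Cyp7b1 fell. Against 0 g/L, Cyp39a1 differed by -1.13 at 2 g/L (limma adjusted p = 0.000614) and by 0.04 at 3.5 g/L (adjusted p = 0.887). In the same order, Cyp7b1 differed by -0.38 (adjusted p = 0.132) and -2.09 (adjusted p = 9.63e-06). Cyp39a1 ran from 1.88 to 7.08 RPKM at 2 g/L (median 2.77) and from 5.14 to 14.3 at 3.5 g/L (median 8.25), a difference of 1.17 (SE 0.27, adjusted p = 0.0233). The groups overlapped through 2 g/L replicate 78, at 7.08 RPKM, and the call was lost without 3.5 g/L replicate 99 or 102 and with no filter. Cyp7a1, the rate-limiting enzyme of the classical pathway, was at 11.4 ± 4.94 and 8.40 ± 5.01 RPKM and was not called (-0.47, SE 0.32, adjusted p = 0.380).

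Of 23 tested genes of acute-phase plasma proteins, 9 fell, 0 rose and 14 were not called, with a median difference of -0.63. Lcn2, an iron-siderophore binder made in inflammation, ran from 5.16 to 125 RPKM at 2 g/L (median 18.1) and from 0.920 to 4.56 at 3.5 g/L (median 1.15). The groups did not overlap, but the 2 g/L libraries spread widely, with replicates 74 and 75 at 98.5 and 125 RPKM. The difference was -3.10 (SE 0.69, adjusted p = 0.0194). Lcn2 is also made by neutrophils and stands in the list of 12 neutrophil markers, which summed to 6.88 to 129 RPKM at 2 g/L (median 20.4) and 2.47 to 6.19 at 3.5 g/L (median 3.08). Of the 12, 2 were tested, both were lower at 3.5 g/L, and Lcn2 was the one called. Leaving Lcn2 out, the other 11 summed to 1.64 to 3.49 RPKM at 2 g/L (median 2.70) and 1.42 to 2.12 at 3.5 g/L (median 1.68). The granule markers Ngp, Camp, Mmp8 and Ltf summed to 0.0776 to 0.431 RPKM and 0.0382 to 0.159. The part of neutrophils in the Lcn2 difference was not tested. Apcs, serum amyloid P (chromosome 1, 172893961 to 172895041), ran from 89.04 to 192 RPKM at 2 g/L (median 145) and from 38.3 to 59.8 at 3.5 g/L (median 52.2). Its difference of -1.45 (SE 0.17, adjusted p = 0.000996) came without overlap. Lrg1, a leucine-rich glycoprotein of the acute phase, fell by 1.51 (SE 0.26, adjusted p = 0.00644), and Hpx, the haem scavenger hemopexin, by 0.90 (SE 0.20, adjusted p = 0.0191). Itih3, an inter-alpha-trypsin inhibitor chain, fell by 0.63 and Cp, the copper carrier ceruloplasmin, by 0.34. Outside the list, Fgl1, a secreted fibrinogen-like protein of hepatocytes, ran from 51.6 to 283 RPKM at 2 g/L (median 142) and from 30.3 to 69.1 at 3.5 g/L (median 44.7), a difference of -1.64 (SE 0.36, adjusted p = 0.0188) with overlap. The neutrophil chemokine gene Cxcl1 fell from 3.18 ± 1.95 to 0.596 ± 0.217 RPKM (-1.26, SE 0.26, adjusted p = 0.0133), without overlap. The acute-phase count was 5 without 3.5 g/L replicate 102 and 4 with no filter.

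The 3 fibrinogen chain genes lie side by side on chromosome 3. Fgb ran from 1347 to 2551 RPKM at 2 g/L (median 1851) and from 959 to 1287 at 3.5 g/L (median 1144), a difference of -0.68 (SE 0.15, adjusted p = 0.0188) without overlap. Fga differed by -0.68 (SE 0.16, adjusted p = 0.0232) and Fgg by -0.66 (SE 0.16, adjusted p = 0.0275), both with overlap. With quantile normalization none of the 3 was called, and the differences were smaller: -0.44 for Fga (adjusted p = 0.0795), -0.33 for Fgb (adjusted p = 0.226) and -0.38 for Fgg (adjusted p = 0.176). Of 19 coagulation genes, the 4 that fell (beside 3.45% of all genes) were these 3 and F11, the clotting protease factor XI (16.4 ± 3.89 to 10.1 ± 0.931 RPKM, difference -0.62, SE 0.13, adjusted p = 0.0135). That count was 1 with quantile normalization and with no filter, and 2 without 3.5 g/L replicate 100 or 102.

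The promoters of Fga and Fgb are shown because these genes fell together and both hold the palindrome TTCNNNGAA, the core bound by STAT factors, which carry the acute-phase signal of interleukin-6. The windows are the 250 bases before the start of each gene, from RefSeq on GRCm38.p6: chr3:83025903-83026152 on the plus strand for Fga and chr3:83049864-83050113 on the minus strand for Fgb. Capitals mark the match, which begins 234 bases before the start in Fga and 162 in Fgb.
Fga: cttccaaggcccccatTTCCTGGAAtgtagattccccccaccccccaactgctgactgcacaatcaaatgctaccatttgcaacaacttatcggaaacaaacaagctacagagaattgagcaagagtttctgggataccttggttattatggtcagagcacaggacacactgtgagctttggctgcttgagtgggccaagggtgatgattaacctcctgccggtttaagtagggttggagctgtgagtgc
Fgb: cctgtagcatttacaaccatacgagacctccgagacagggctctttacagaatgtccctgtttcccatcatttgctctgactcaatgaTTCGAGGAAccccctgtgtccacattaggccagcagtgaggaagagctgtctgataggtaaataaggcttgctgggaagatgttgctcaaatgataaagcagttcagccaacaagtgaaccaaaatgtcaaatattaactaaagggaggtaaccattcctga
On both strands, 3 of the 9 acute-phase genes that fell held this motif (Apcs, Fga and Fgb). It was in 7.02% of 32851 promoter windows of the same length. A gene counted if any of its windows held the motif, but the percent is of single windows, so these are unlike measures. Among the other genes searched, the motif was also in 2 of 6 replication genes that fell (Lig1 and Mcm5). It was in 0 of 6 cholesterol synthesis genes that fell and in 0 of 5 female-biased genes that rose. The matches in Fga and Fgb also fit the looser motif TTNCNNNAA, searched as the core of CCAAT enhancer-binding proteins. That motif was in 6 of the 9 acute-phase genes (Apcs, Cp, Fga, Fgb, Hpx and Lrg1) and in 32.93% of windows. It was also in 3 of 6 cholesterol synthesis, 3 of 6 replication and 1 of 5 female-biased genes. A match is a description of the letters only.

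Complement genes fell in 11 of 26 cases and rose in 0, with a median difference of -0.34. In the step of 2 against 1 g/L, which shares the 2 g/L libraries, 14 of 26 fell and 0 rose, with a median of -0.31. Of all genes in that step, 25.9% were called in either direction. Between 2 and 3.5 g/L, every 3.5 g/L library lay below every 2 g/L library for 9 of the 26, beside 2.03% of all tested genes. The members that fell between 2 and 3.5 g/L came from several stages of the cascade. Among recognition and early components were Mbl1, mannose-binding lectin (-0.31), and C4b and C4a (-0.79 and -0.81), near-identical copies with uncertain reads. Among terminal components, which form the membrane attack pore, were Hc, the gene of C5 (-0.43), C6 (-0.94), C8a (-0.63), C8b (-0.66) and C9 (-1.22). Among regulators were Cfi (-0.34) and C4bp (-0.43). C9 (chromosome 15, 6445327 to 6498751) ran from 83.7 to 118 RPKM at 2 g/L (median 101) and from 26.5 to 60.6 at 3.5 g/L (median 46.8), with SE 0.20, adjusted p = 0.00528. Its means at 0 and 1 g/L were 282 ± 86.8 and 216 ± 30.1 RPKM, so its mean was lower at each higher dose. C8a ran from 83.01 to 123 RPKM at 2 g/L (median 105) and from 53.6 to 76.6 at 3.5 g/L (median 68.97), with adjusted p = 0.00749. C6 overlapped between doses and lost its call in 12 of 20 alternatives, and Cfi in 14.

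Of 22 tested Kupffer cell and macrophage markers, 3 fell (C6, Cd68 and Fcer1g), beside 3.45% of all genes, and 0 rose. All 22 had a negative difference, and the median was -0.33. The 25 markers held summed to 126 to 249 RPKM at 2 g/L and 108 to 159 at 3.5 g/L, with none at 0 in all 12 libraries, and C6 is also a complement gene of hepatocytes. The 5 defining markers (Emr1, Clec4f, Cd5l, Marco and Csf1r) summed to 35.4 to 76.7 RPKM and 30.999 to 46.7. None of the 5 was called by limma after adjustment, though all 5 were lower at an unadjusted p under 0.05. Without 2 g/L replicate 76, 12 of the 22 fell, and without any one of 2 g/L replicates 73, 74, 75 and 77 and 3.5 g/L replicates 101 and 102, 1 did. With all 24 libraries in the fit, 10 fell. In these bulk samples fewer cells of a type and less RNA per cell cannot be told apart. Of 37 interferon-induced genes, 5 fell (Ddx60, Herc6, Ifih1, Ifitm3 and Irgm2), beside 3.45% of all genes, and 0 rose. Differences were -0.47 to -0.21 for the 5, with a median of -0.18 over the 37. Without 3.5 g/L replicate 102 limma called 0 of the 37, with 9 lower and 1 higher at an unadjusted p under 0.05. Without 2 g/L replicate 78, 3 of the 37 fell. The part of macrophages in the lower levels of plasma protein genes was not tested.

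Genes of cholesterol synthesis fell in 7 of 20 cases and rose in 0, with a median difference of -0.32. Hmgcs1, cytosolic HMG-CoA synthase (chromosome 13, 119690379 to 119708260), ran from 29.1 to 66.00 RPKM at 2 g/L (median 35.7) and from 20.6 to 25.4 at 3.5 g/L (median 23.5), a difference of -0.74 (SE 0.16, adjusted p = 0.0180) without overlap. Mvk, mevalonate kinase, fell from 4.63 ± 0.675 to 2.99 ± 0.527 RPKM (-0.50, SE 0.10, adjusted p = 0.0113). Fdps, farnesyl diphosphate synthase, ran from 46.3 to 63.7 RPKM at 2 g/L (median 59.4) and from 34.5 to 45.2 at 3.5 g/L (median 39.2), a difference of -0.53 (SE 0.09, adjusted p = 0.00550) without overlap. The later sterol steps Cyp51 (-0.47), Msmo1 (-0.67), Nsdhl (-0.40) and Dhcr7 (-0.50) fell with overlapping groups. Nsdhl lost its call in 10 of 20 alternatives and Msmo1 in 5. At 0 g/L the means of Hmgcs1 and Fdps were 34.2 ± 10.3 and 73.4 ± 20.4 RPKM. The number of cholesterol genes that fell was 4 without 3.5 g/L replicate 102 and with no filter.

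The Hmgcs1 promoter is shown because, of the 7 genes, it had the widest difference, and among the 6 with a RefSeq window it was the one to match the sterol regulatory element TCACNCCAC, bound by SREBP, the factor that turns on this pathway when sterol is low. The window is chr13:119690101-119690350, plus strand, GRCm38.p6. Capitals mark that element, which begins 137 bases before the start, and 3 CCAAT boxes read on the other strand (ATTGG), the motif of NF-Y, a partner of SREBP.
Hmgcs1: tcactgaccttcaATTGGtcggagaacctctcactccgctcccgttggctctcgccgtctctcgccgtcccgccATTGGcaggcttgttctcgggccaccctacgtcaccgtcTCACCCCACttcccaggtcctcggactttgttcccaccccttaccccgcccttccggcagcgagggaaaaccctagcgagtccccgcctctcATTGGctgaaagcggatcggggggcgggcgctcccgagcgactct
The element was in 1.05% of all 32851 windows on either strand. It was also in 1 of 6 replication genes that fell (Fen1) and 1 of 9 acute-phase genes that fell (Itih3). A CCAAT box was in all 6 of the cholesterol genes with a window, and in 4 of 6 replication, 3 of 9 acute-phase and 2 of 5 female-biased genes. Of all single windows, 33.85% held a CCAAT box. For both motifs a gene counted if any of its windows matched, while the percents are of single windows.

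Replication genes fell in 7 of 15 cases and rose in 0, with a median difference of -0.34, and all 15 differences were negative. Of the 15, 6 were under 0.5 RPKM in at least 1 of the 12 libraries. The 7 that fell were Mcm2, Mcm3, Mcm4, Mcm5 and Mcm6, subunits of the replicative helicase, with Fen1, the flap endonuclease, and Lig1, a DNA ligase of lagging strands. Mcm6 ran from 2.17 to 4.08 RPKM at 2 g/L (median 2.85) and from 1.11 to 2.51 at 3.5 g/L (median 1.58), a difference of -0.62 (SE 0.13, adjusted p = 0.0126) with overlap. Mcm5 ran from 0.934 to 1.92 RPKM at 2 g/L (median 1.23) and from 0.350 to 0.860 at 3.5 g/L (median 0.553), a difference of -0.55 (SE 0.10, adjusted p = 0.00739) without overlap. Mcm4, Mcm3 and Mcm2 differed by -0.50, -0.45 and -0.36, and Fen1 and Lig1 by -0.35 and -0.30. At these low levels log2(RPKM + 1) understates a change: the mean of Mcm5 at 2 g/L was 2.28 times that at 3.5 g/L. Means of Mcm5 at 0 and 1 g/L were 0.666 ± 0.228 and 0.956 ± 0.395 RPKM. Set side by side, 2 against 0 g/L had 14 of 16 tested replication genes risen (beside 39.9% of all genes), and 3.5 against 0 g/L had 0 of 14 (beside 38.6%). The neighbouring step of 2 against 1 g/L had 1 of 17 risen (beside 20.8%) and 1 fallen, with a median difference of 0.19. These comparisons share libraries. The number that fell between 2 and 3.5 g/L was 2 without 3.5 g/L replicate 102, 3 without replicate 101 and with no filter, 4 without replicate 100 or 2 g/L replicate 75, and 11 with all 24 libraries in the fit.

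Mitosis genes were not called in either direction. Here limma called 0 of 26 (beside 7.22% of all genes), as in every alternative run, and 0 had an unadjusted p under 0.05. All 26 differences were negative with a median of -0.17, and 17 of the 26 were under 0.5 RPKM in at least 1 library. Ccnd1, cyclin D1, stood at 16.4 ± 4.30 and 11.8 ± 3.39 RPKM and was not called (-0.45, SE 0.20, adjusted p = 0.179). Cenpm, a kinetochore protein named after its values were seen, fell from 2.18 ± 0.656 to 0.722 ± 0.292 RPKM (-0.87, SE 0.14, adjusted p = 0.00413), with no overlap.

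The promoters of Mcm5 and Mcm6 are shown because these helicase genes fell and their windows hold E2F sites, the elements through which transcription of replication genes is driven before S phase. Searched as TTTGGCGC or TTTCGCGC on both strands, such sites were in 2 of 6 replication genes with a window, counting any window of a gene. They were in 0.65% of 32851 single windows. None was in any window of the 6 cholesterol synthesis, 9 acute-phase or 5 female-biased genes searched. Windows are the 250 bases before the start (RefSeq, GRCm38.p6): chr8:75109259-75109508 on the plus strand for Mcm5 and chr1:128359706-128359955 on the minus strand for Mcm6. Capitals mark 2 matches in Mcm5, which overlap, and 3 in Mcm6, of which 2 overlap.
Mcm5: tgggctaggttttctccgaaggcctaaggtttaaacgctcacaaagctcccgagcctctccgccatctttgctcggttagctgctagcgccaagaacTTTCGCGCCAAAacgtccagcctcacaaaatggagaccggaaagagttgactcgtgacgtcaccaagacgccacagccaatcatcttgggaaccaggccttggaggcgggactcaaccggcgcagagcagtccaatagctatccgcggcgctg
Mcm6: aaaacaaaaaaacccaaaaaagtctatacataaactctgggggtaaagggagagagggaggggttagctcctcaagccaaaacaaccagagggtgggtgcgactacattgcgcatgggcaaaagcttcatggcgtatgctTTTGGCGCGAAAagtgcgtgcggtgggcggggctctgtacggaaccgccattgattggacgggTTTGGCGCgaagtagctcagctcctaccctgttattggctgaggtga
The Mcm5 window also holds the STAT core, beginning 239 bases before the start and not in capitals. No binding was measured, and a window without a match says only that it lacks these letters.

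**Figure D5:**
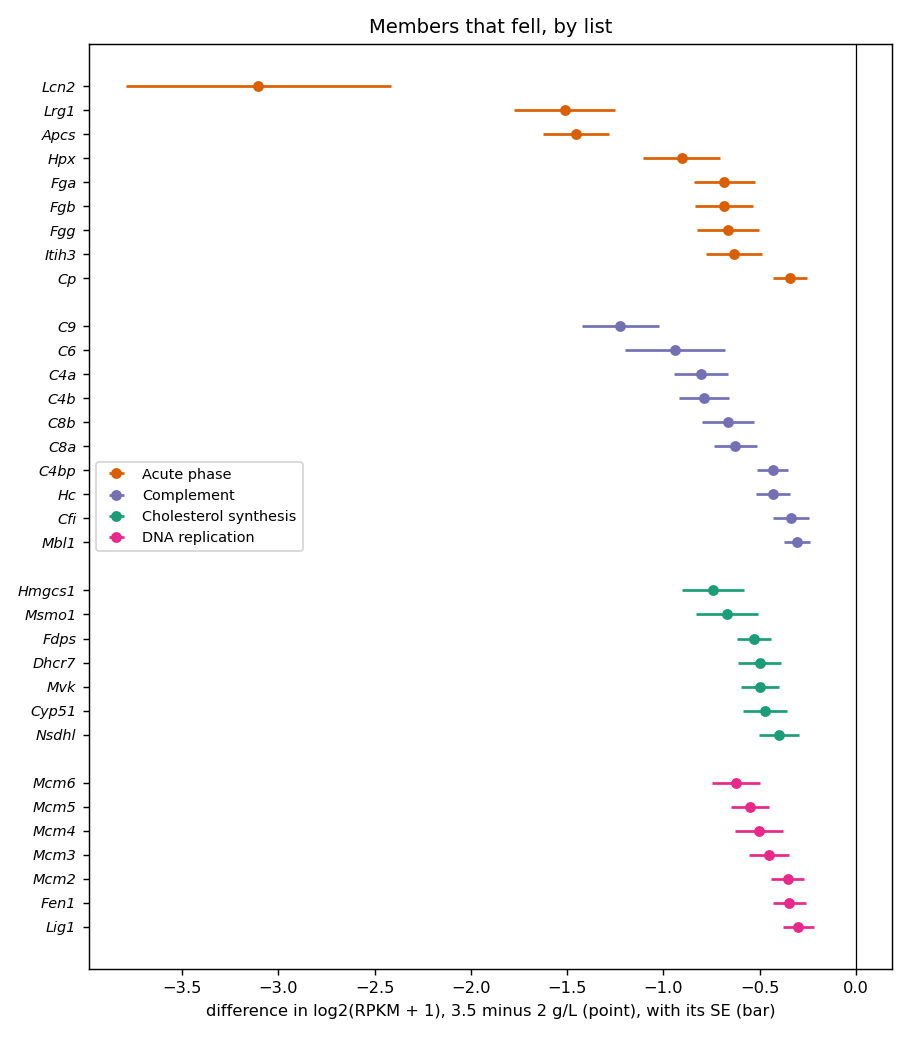
Points give the difference in log2(RPKM + 1), 3.5 minus 2 g/L, and bars its SE, for named members that fell in 4 lists, coloured by list. Values run from -3.10 for Lcn2 to -0.30 for Lig1, and the members drawn are 9 of 23 acute-phase, 10 of 26 complement, 7 of 20 cholesterol synthesis and 7 of 15 replication genes.

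Several single genes moved outside these groups. Krt23, a type I keratin (chromosome 11, 99477974 to 99493137), had the smallest p of all tested genes. It ran from 0.257 to 0.953 RPKM at 2 g/L (median 0.659) and from 2.02 to 3.64 at 3.5 g/L (median 3.21), a difference of 1.30 (SE 0.12, adjusted p = 0.000271), and its means at 0 and 1 g/L were 0.201 ± 0.0715 and 0.252 ± 0.0806 RPKM. Krt23 stands in the bile duct list, where 1 of 8 tested genes rose (beside 3.77% of all genes). The defining markers Epcam, Krt19 and Krt7 summed to 0.679 to 1.18 RPKM at 2 g/L and 0.902 to 1.45 at 3.5 g/L. All 15 markers of the list summed to 151 to 276 RPKM at 2 g/L (median 218) and 132 to 194 at 3.5 g/L (median 180). At an unadjusted limma p under 0.05, 1 of the 8 tested was higher at 3.5 g/L and 2 were lower. Klf15, a transcription factor of fasting and amino acid breakdown named after its values were seen, rose from 23.5 ± 3.55 to 36.9 ± 3.10 RPKM (0.64, SE 0.09, adjusted p = 0.00241), without overlap. Fbf1, a protein of the ciliary base, rose by 1.29 (SE 0.33, adjusted p = 0.0334), with overlap and a call lost in 8 of 20 alternatives. Fam25c fell by 1.18 (SE 0.20, adjusted p = 0.00601). LOC100048884 fell by 1.66 (SE 0.45, adjusted p = 0.0437), a call lost in 10 of 20.

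Gstz1, the enzyme that dechlorinates DCA, was not called and stood at 129 ± 8.99 and 123 ± 4.87 RPKM (-0.07, SE 0.06, adjusted p = 0.541). Of 16 clock and clock output genes, Hlf, an output factor, was the 1 that rose (beside 3.77% of all genes) and 0 fell. Hlf ran from 2.30 to 3.02 RPKM at 2 g/L (median 2.56) and from 3.34 to 6.18 at 3.5 g/L (median 4.02), a difference of 0.55 (SE 0.10, adjusted p = 0.00874) without overlap. Nr1d1, the clock repressor REV-ERBα, was not called, at 0.57 (SE 0.19, adjusted p = 0.0840), but was called with all 24 libraries (adjusted p = 0.0275) and without 2 g/L replicate 77 (adjusted p = 0.0410). Dbp, another clock output factor, had 1.00 (SE 0.50, adjusted p = 0.239) and was not called. Myc, a growth-related transcription factor, was the 1 call among 17 immediate early genes and among 14 cyclins and regulators of G1 (beside 7.22% of all genes). Myc ran from 0.825 to 1.58 RPKM at 2 g/L (median 1.01) and from 1.32 to 2.26 at 3.5 g/L (median 1.65), a difference of 0.42 (SE 0.10, adjusted p = 0.0249) with overlap, and lost its call in 6 of 20 alternatives. Egr1, another immediate early gene, had 0.70 (SE 0.33, adjusted p = 0.201) and was not called. Alb, albumin, stood at 15054 ± 3234 and 15917 ± 1845 RPKM (0.10, SE 0.16, adjusted p = 0.742) and was not called. Of 77 mitochondrial ribosomal protein genes, 1 rose (beside 3.77% of all genes) and 0 fell. It was Mrpl38, at 0.22 (SE 0.06, adjusted p = 0.0379), a call lost in 8 of 20 alternatives.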

How the data were processed

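RNA-seq of 24 frozen mouse liver samples was deposited by the authors as RPKM per gene and library. The tools listed are CASAVA, STAR 2.4 and Partek, with build mm10, per the submitters' processing notes. The annotation, and whether counting used strand, are not given in the sources used here, so reads of overlapping or antisense genes cannot be told apart. Genes that sort after Olfr272 were not analysed here, and 13 lines with date-like symbols were dropped. Deposited zeros stand as 1e-04 RPKM. For the depth estimate, 5937 of 6213 low values (95.6%) came out as whole reads within 0.02 times their number.

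limma 3.58.1 (R 4.3.3) was fitted with an expression trend to log2(RPKM + 1) of the 12 libraries, for genes at 0.5 RPKM in at least 6, with Benjamini-Hochberg adjustment and a threshold of 0.05. The script was tested on simulated data. Differences on this scale understate changes of low genes.

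The comparison, the 61 gene lists and the named genes were chosen with earlier results of these data known. Named are the 15 largest rises and 15 largest falls among called genes with a mean of at least 2 RPKM in the higher dose, up to 4 members per list by adjusted p, and a preset group of genes. The other called members of the lists described, and Cenpm, Klf15, Cyp3a25, Hsd3b5, Ghr and Igf1, were named after their values were seen; 1 preset gene and 1 called complement gene are not reported here. Gene coordinates are from GENCODE (GRCm38), and promoter windows from RefSeq (GRCm38.p6). A gene counted as matching a motif if any of its windows held it, while percents are of single windows. Of 7 motifs searched, a direct repeat of the nuclear receptor type (0.03% of windows) and an interferon-type repeat (2.98%) matched none of the genes looked at; motifs were chosen after values were seen.

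Alternatives were median-ratio and quantile scaling, a pseudocount of 0.1, no filter, a filter at 2 RPKM, all 24 libraries in the fit, array weights, robust moderation, and leaving out each of the 12 libraries.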

Additional observations from a re-analysis of the deposited data

Results flagged for a closer look

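Among 218 groups of 6 libraries (109 genes at 2 doses), 11 held a library whose gap to the nearest of the others was, as a share of the whole range, above Dixon's 95% critical value for 6 samples. Chance gives about 1 in 20 groups. Of the 11, 4 came from 2 g/L replicate 78 and 3 from 3.5 g/L replicate 99. Cenpm was highest in 3.5 g/L replicate 99, at 1.29 RPKM, beside 0.490 to 0.754 in the other 5. Cfi was highest in 2 g/L replicate 78, at 109 RPKM, beside 82.7 to 92.4 in the other 5. Cxcl1 was highest in 3.5 g/L replicate 97, at 1.03 RPKM, beside 0.435 to 0.576 in the other 5. Cyp2a4 was highest in 3.5 g/L replicate 99, at 92.8 RPKM, beside 22.9 to 45.3 in the other 5. Cyp2b9 was highest in 3.5 g/L replicate 99, at 129.5 RPKM, beside 15.8 to 50.8 in the other 5. Cyp39a1 was highest in 2 g/L replicate 78, at 7.08 RPKM, beside 1.88 to 3.602 in the other 5. Elovl3 was lowest in 2 g/L replicate 78, at 28.8 RPKM, beside 68.2 to 89.6 in the other 5. Elovl6 was highest in 2 g/L replicate 76, at 20.1 RPKM, beside 11.97 to 13.5 in the other 5. Fitm2 was lowest in 3.5 g/L replicate 98, at 11.7 RPKM, beside 17.2 to 20.03 in the other 5. Klf15 was highest in 2 g/L replicate 78, at 30.4 RPKM, beside 20.7 to 23.5 in the other 5. Mcm4 was highest in 2 g/L replicate 75, at 2.51 RPKM, beside 1.08 to 1.33 in the other 5.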

How the results depend on the processing

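With no filter on low values, 276 genes were called, 154 rising and 122 falling. With all 24 libraries in the fit, 345 fell. With a pseudocount of 0.1, 178 calls reached 0.5 on the log2 scale. Leaving out each library in turn gave 223 to 475 calls, with 128 to 243 rising, 95 to 232 falling and 81 to 131 reaching 0.5. The falling count was 95 without 3.5 g/L replicate 102, 124 without replicate 101, 135 without replicate 99, 145 without replicate 100 and 131 without 2 g/L replicate 75. The rising count was 128 without 3.5 g/L replicate 102 and 143 without replicate 99. Fewer samples enter these fits, and more genes enter the fit with no filter; the cause was not otherwise tested. Of the 90 called genes described with values from the fit, 48 kept the call in all alternatives run and 42 lost it in at least 1. No filter ended 36 of these calls, leaving out 3.5 g/L replicate 102 ended 37, and none changed sign. A further 5 genes gained a call in some alternative. The median difference over all genes was 0.001 with median-ratio scaling and -0.002 with quantile normalization. Depth limits genes near 0.5 RPKM. Of the tested genes, 6 of 15 for replication and 17 of 26 for mitosis were under that level in at least 1 library. The part of depth in their calls was not tested. No paired analysis was possible because the 2 doses share no replicate numbers.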
